A study of Mus musculus with 20 samples.

Results

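Gene expression was compared in the trigeminal ganglia of mice that had received morphine and of mice that had received vehicle. All trigeminal libraries of the series were used, which are 10 of its 20 RNA-seq libraries, 5 labelled OIH (morphine) and 5 labelled VehicleOIH. Each library came from a separate male C57BL/6J mouse, 9-12 weeks old, and the tissue was taken 24 h after the last injection in both groups. No mouse carried a transgene or a deletion according to the labels. The sources used here give no dose, number of injections, route or clock time of tissue collection. The other 10 libraries are nucleus accumbens of the same 10 mice and serve here only to ask whether a trigeminal difference also differed from that in the brain. In this field OIH stands for opioid-induced hyperalgesia, the heightened pain sensitivity that repeated opioids can cause, and the labels give no measure of that state in single mice.

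The trigeminal ganglion is the relay through which the face, teeth and meninges are sensed, and it holds the cell bodies of their sensory neurons. Each cell body is wrapped by satellite glia, and its axon is insulated by Schwann cells, so whole ganglia mix neuronal, glial, vascular and connective tissue RNA. Morphine acts on opioid receptors carried by a part of the neurons. Most cells also run a circadian clock, in which the transcription factors BMAL1 (gene symbol Arntl) and CLOCK switch on the Per and Cry repressors, the nuclear receptors Nr1d1 and Nr1d2, and the output factors Dbp, Tef and Hlf. PER and CRY proteins then silence BMAL1 and CLOCK, and the Nr1d receptors silence Arntl, which closes a daily loop.

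After morphine, clock-driven genes were higher, lipid-handling and satellite glial Fabp7 was lower, and a set of genes with long messages was higher. Of 29394 features tested, which are genes or single unmatched transcripts, 53 differed at an adjusted p of 0.05 (0.180%), 45 of them higher (0.153%) and 8 lower (0.0272%) after morphine. The test was the quasi-likelihood test of edgeR with Benjamini-Hochberg adjustment over all features. Of the 53, 45 were annotated genes, 38 higher and 7 lower, and 8 were transcripts that no annotation table named. CPM gives a gene's counts relative to the TMM-scaled total of its library. In each of the 53 the CPM values of the groups did not overlap, as was so for 748 of all features tested (2.54%), 422 of them higher (1.44%) and 326 lower (1.11%). The median log2 fold change over all features was -0.0022. Of the 38 annotated genes that rose, 19 rose by less than 1.3-fold, so much of the difference was small and was called because replicate mice were close to each other.

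The libraries carried RNA of sensory neurons, as the labelled tissue should. Scn10a, a sodium channel of nociceptors, had 712 to 770.1 CPM in vehicle and 610.0 to 782 CPM in morphine libraries. Library totals lay between 61285916 and 76110288 estimated counts. Other tissue varied between libraries. The summed pituitary list, genes of the gland that lies beside the ganglia, had 265, 293, 281, 877 and 1263 CPM in vehicle replicates 1 to 5 and 546, 546, 1644, 301 and 1406 CPM in morphine replicates 1 to 5. The skeletal muscle list reached 309 CPM in vehicle replicate 1 and 723 CPM in morphine replicate 4, against 43.5 to 63.2 CPM in the other libraries. The macrophage list stood at 336 CPM in vehicle replicate 2 and at 101 to 140.2 CPM in the others. The list of central astrocytes and oligodendrocytes had 211, 182, 262, 279 and 306 CPM in vehicle replicates 1 to 5. In morphine replicates 1 to 5 it had 313, 337, 402, 254 and 181 CPM. Of its 16 genes 14 had a positive log2 fold change, the median was 0.38 and 0 passed. The red blood cell list stood at 1581 and 1497 CPM in morphine replicates 3 and 4 and at most 717 CPM in all others. All 16 pituitary, 11 red blood cell and 13 muscle genes measured had a positive log2 fold change. Their medians were 0.88, 0.93 and 1.07, and 0 passed. A list of striatal genes, many of which sensory ganglia also express, had 523 to 545 CPM in vehicle and 539.6 to 564 CPM in morphine libraries. Its defining dopamine receptor Drd1 had 0.643, 0.680, 0.686, 1.02 and 0.582 CPM in vehicle and 0.942, 1.09, 1.03, 0.996 and 1.11 CPM in morphine replicates 1 to 5. On average this was 0.304% and 0.395% of the accumbens level of the same treatment, which was 238 CPM in vehicle and 261 CPM in morphine mice.

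**Figure D1:**
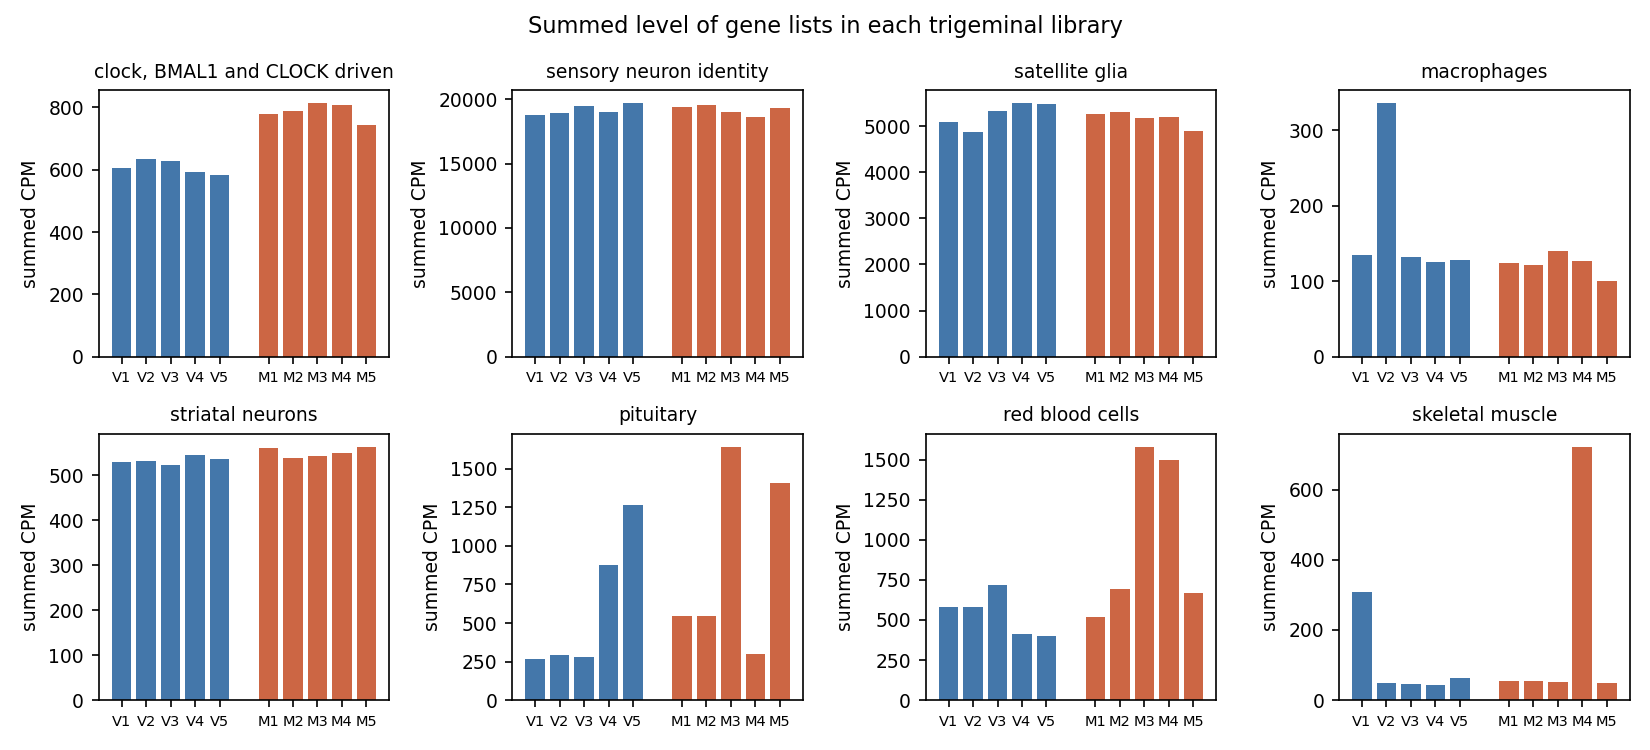
Summed CPM of gene lists (y axis, from 0) in each trigeminal library (x axis, V vehicle and M morphine with the replicate number). The clock list was higher in every morphine library (743 to 814 CPM) than in any vehicle library (582 to 635 CPM). The pituitary, muscle, blood and macrophage lists varied between libraries of both groups. Median log2 fold changes of their genes were 0.88, 1.07, 0.93 and -0.56.

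The clock supplied the largest group of called genes with a shared role. Promoters of clock genes that hold such letters are shown because the proteins of the clock bind short motifs there: BMAL1 and CLOCK bind the E-box CACGTG, DBP, TEF and HLF bind the D-box TTANGTAA, and the NR1D and ROR receptors bind elements around TAGGTCA. The windows run from 250 bases before to 50 bases after the annotated start in RefSeq on GRCm38.p6, 5′ to 3′ on the gene's strand, with the motif in capitals on either strand. Ciart (chr3:95882179-95882478, minus strand) and the first Tef promoter (chr15:81802423-81802722, plus strand) show the E-box, Per3 (chr4:151044616-151044915, minus strand) shows the D-box, and a second promoter of Arntl (chr7:113207261-113207560, plus strand) shows the ROR element core.
Ciart: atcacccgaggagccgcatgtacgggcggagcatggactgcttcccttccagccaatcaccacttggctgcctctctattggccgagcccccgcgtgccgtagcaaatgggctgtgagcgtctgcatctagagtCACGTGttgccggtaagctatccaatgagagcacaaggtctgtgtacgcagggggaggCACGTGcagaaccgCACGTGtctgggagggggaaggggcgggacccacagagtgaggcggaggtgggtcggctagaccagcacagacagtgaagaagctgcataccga
Tef: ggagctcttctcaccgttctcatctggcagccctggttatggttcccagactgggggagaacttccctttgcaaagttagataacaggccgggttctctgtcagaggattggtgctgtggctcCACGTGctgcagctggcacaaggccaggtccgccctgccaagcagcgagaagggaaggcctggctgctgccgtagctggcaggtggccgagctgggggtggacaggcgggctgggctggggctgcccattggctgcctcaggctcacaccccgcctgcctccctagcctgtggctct
Per3: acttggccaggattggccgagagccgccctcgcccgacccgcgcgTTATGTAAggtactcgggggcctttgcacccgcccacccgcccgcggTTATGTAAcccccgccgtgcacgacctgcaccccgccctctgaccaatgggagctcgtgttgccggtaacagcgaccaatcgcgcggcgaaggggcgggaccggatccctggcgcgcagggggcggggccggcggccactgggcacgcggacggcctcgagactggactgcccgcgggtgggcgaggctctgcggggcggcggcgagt
Arntl: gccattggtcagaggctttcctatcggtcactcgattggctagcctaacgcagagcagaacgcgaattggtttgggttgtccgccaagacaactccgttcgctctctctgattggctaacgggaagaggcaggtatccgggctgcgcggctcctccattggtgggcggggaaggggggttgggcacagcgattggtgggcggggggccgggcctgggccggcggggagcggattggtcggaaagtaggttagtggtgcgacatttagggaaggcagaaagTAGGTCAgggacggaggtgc

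Ciart, which encodes a repressor of the BMAL1 and CLOCK complex, held 3 E-boxes in this window, Tef held 1, and Per3 held 2 D-boxes. The E-box stood in 7.15% of all 32851 promoters in the table, the D-box in 2.32% and the ROR element core in 2.61%, with both strands searched and no overlap between these motifs. Of the 12 clock-driven genes listed, 10 had a promoter in the table, and 4 of these held an E-box, namely Per1, Tef, Ciart and Bhlhe41. Of the 8 called clock genes 7 had a promoter in the table, and 2 of these, Tef and Ciart, held an E-box. Dbp and Hlf held none of the motifs searched in this window. Arntl, shown for the ROR element core, was not called. Cry2 and Nr1d1 held the variant CACGTT, which stood in 4.68% of all promoters. A match describes the letters alone.

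Of the 12 clock-driven genes, 8 rose after morphine and 0 fell, and all 12 had a positive log2 fold change with a median of 0.42. Dbp (D-site binding protein, chr7:45705100-45710203) had 14.1, 18.3, 15.8, 16.3 and 15.5 CPM in vehicle replicates 1 to 5 and 36.7, 32.2, 37.8, 40.8 and 32.0 CPM in morphine replicates 1 to 5. The lowest morphine mouse stood far above the highest vehicle mouse. The mean went from 16.0 ± 1.53 to 35.9 ± 3.79 CPM (SD, n = 5), a log2 fold change of 1.16 ± 0.086 (SE; edgeR adjusted p = 0.00290), the smallest adjusted p of all features. Its partners of the same family rose less. Tef went from 136, 140.3, 140.0, 134 and 130.2 CPM in vehicle to 164, 174, 174, 177 and 162 CPM in morphine libraries, without overlap, by 0.32 ± 0.032 (adjusted p = 0.00563), and Hlf from 17.5 ± 1.92 to 25.9 ± 2.34 CPM, by 0.57 ± 0.085 (adjusted p = 0.0412).

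The repressors moved in the same direction. Ciart (chr3:95878500-95882257) was low in both groups, with 1.93, 1.47, 1.78, 1.59 and 1.98 CPM in vehicle and 4.55, 4.23, 3.87, 4.25 and 3.57 CPM in morphine libraries. Each morphine mouse had about the same excess, and the log2 fold change was 1.23 ± 0.11 (adjusted p = 0.00435). Per3 (chr4:150997018-151044707) had 39.6, 39.3, 38.9, 36.9 and 33.2 CPM in vehicle and 58.1, 58.3, 61.3, 61.7 and 52.8 CPM in morphine libraries, again without overlap, a rise of 0.64 ± 0.057 (adjusted p = 0.00435). Per2 rose from 15.8 to 21.0 CPM over the vehicle mice to 28.3 to 34.2 CPM over the morphine mice, by 0.74 ± 0.083 (adjusted p = 0.00931). Per1, the most quickly induced member of the family, had 61.8, 61.9, 58.5, 47.7 and 34.0 CPM in vehicle and 81.4, 73.1, 69.5, 63.8 and 56.7 CPM in morphine libraries. These groups overlapped, and the log2 fold change of 0.38 ± 0.16 did not pass the test (adjusted p = 0.48). Cry2 rose by 0.21 ± 0.024 (adjusted p = 0.00931), from 103 ± 2.68 to 119.6 ± 2.85 CPM, a small but even difference.

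The nuclear receptor Nr1d1 (REV-ERB alpha), a repressor of Arntl, rose from 23.5, 30.2, 27.7, 27.6 and 29.9 CPM in vehicle to 38.0, 35.9, 38.9, 40.8 and 37.3 CPM in morphine libraries, by 0.46 ± 0.066 (adjusted p = 0.0329). Its relative Nr1d2 had a log2 fold change of 0.26 ± 0.053 that did not pass (adjusted p = 0.12), although its groups did not overlap (117 to 142 against 145 to 164 CPM). The repressors Bhlhe40 and Bhlhe41 stood at 0.20 and 0.22 on the log2 scale, with adjusted p = 0.14 and 0.23. Of the 9 genes listed as activators or as peaking in the opposite phase, 0 passed the test, and their median was -0.013. Arntl had 8.39, 6.35, 7.04, 5.04 and 7.78 CPM in vehicle and 4.55, 3.96, 4.06, 3.97 and 2.94 CPM in morphine libraries. Every morphine mouse was lower than every vehicle mouse, at a log2 fold change of -0.83 ± 0.15 that missed the threshold (adjusted p = 0.0819). Its partner Clock stood at 84.7 ± 1.77 and 86.3 ± 2.84 CPM, and the alternative partner Npas2 at 3.20 ± 0.363 and 2.87 ± 0.340 CPM. Cry1, the later-peaking cryptochrome, had 0.20 (adjusted p = 0.18), and Nfil3, which opposes DBP at the D-box, -0.12 (adjusted p = 0.80). Among 10 kinases and other modifiers of the clock, 0 passed, and the smallest p belonged to Usp2, a ubiquitin protease, at 0.43 ± 0.11 (adjusted p = 0.20).

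**Figure D2:**
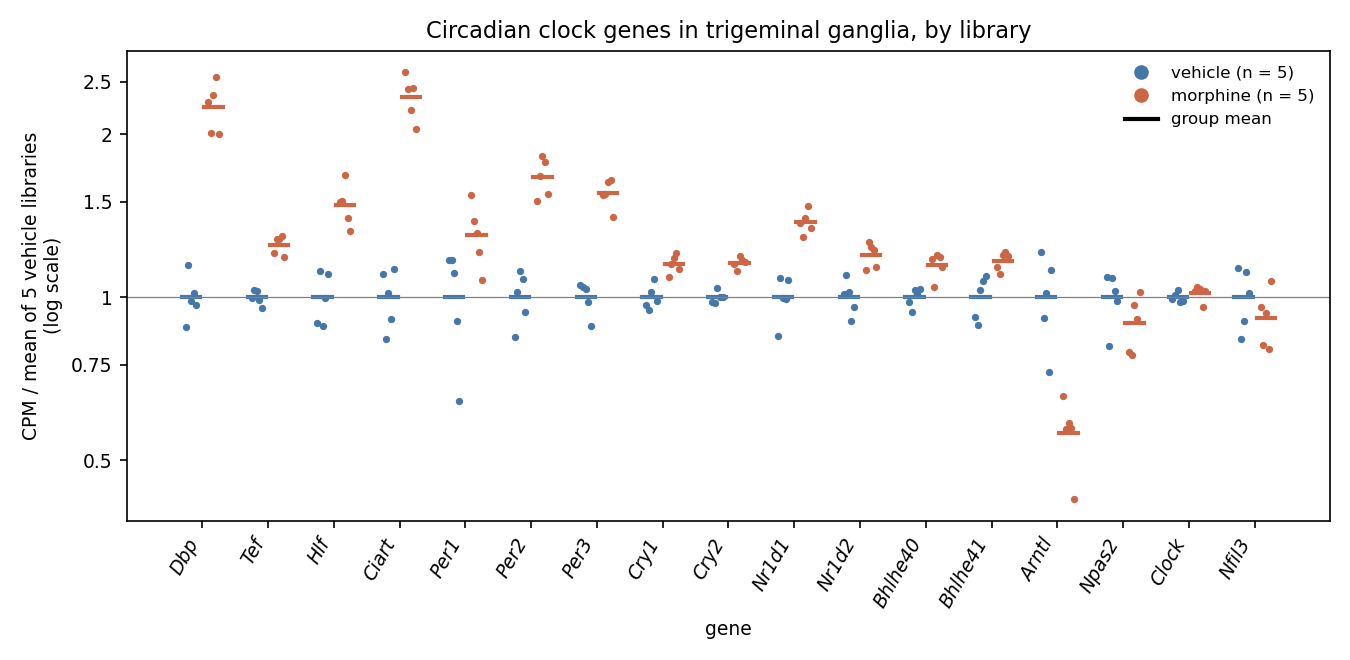
CPM of 17 clock genes in each trigeminal library, divided by the mean of the 5 vehicle libraries (y axis, log scale; x axis, gene). Points are libraries and lines are group means. Dbp and Ciart show the widest separation upward (2.24-fold and 2.34-fold), Arntl is the gene that separates downward, and Clock lies near 1 in both groups.

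The fold changes of the clock genes were steadier than their calls. Over all alternatives, the 8 clock genes kept a positive log2 fold change. When single libraries were left out, Hlf was lost in 9 of the 10 fits and Nr1d1 in 8, at edgeR adjusted p up to 0.11. Dbp, Ciart, Per2, Per3, Tef and Cry2 passed in each. With the summed striatal list as a covariate, whose correlation with treatment over the 10 libraries was 0.74, 1 of the 8, Tef, still passed. With striatal markers such as Drd1 as the covariate 0 of the 8 passed, at edgeR adjusted p from 0.44 to 0.92. Without the 4 libraries highest in pituitary genes 0 of the 8 passed, at edgeR adjusted p from 0.0824 to 0.41. The median log2 fold change of the 8 was 0.60 there, against 0.60 in all 10 libraries. That fit left out vehicle replicates 4 and 5 and morphine replicates 3 and 5, so fewer mice were compared. With collection times not given, treatment and time of day cannot be told apart.

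Glucocorticoid hormones induce several clock genes directly, so their other targets were listed. Of 18 measured, 0 passed, 13 had a positive log2 fold change and 5 a negative one, down to -0.19, and the median was 0.15. The members named next were all on the positive side. Fkbp5, a chaperone partner of the glucocorticoid receptor, had 45.9, 58.1, 56.7, 62.2 and 53.9 CPM in vehicle and 62.0, 61.8, 69.6, 68.1 and 72.6 CPM in morphine libraries, and the groups overlapped (0.27 ± 0.079, adjusted p = 0.27). Plin4, a coat protein of lipid droplets, had 4.77, 6.11, 6.31, 6.30 and 5.58 CPM in vehicle and 7.21, 10.4, 11.1, 17.4 and 15.4 CPM in morphine libraries. These values did not overlap but were spread among the morphine mice, and the log2 fold change of 1.08 ± 0.22 missed the threshold (adjusted p = 0.11). Hif3a, a member of the hypoxia-inducible factor family, stood at 0.65 (adjusted p = 0.24), and Dusp1, a phosphatase of MAP kinases, at 0.18 (adjusted p = 0.35).

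Fewer genes fell. Fabp7 (chr10:57784923-57788450), a fatty acid carrier that marks satellite glia in sensory ganglia, had 194, 171, 188, 192 and 187 CPM in vehicle and 131, 120.4, 105, 109 and 117 CPM in morphine libraries. The highest morphine mouse was below the lowest vehicle mouse. The mean fell from 186 ± 9.06 to 116 ± 10.1 CPM (SD, n = 5), a log2 fold change of -0.68 ± 0.059 (adjusted p = 0.00435). In bulk tissue, fewer cells of a type and less RNA per cell cannot be told apart. Angptl4 (chr17:33774900-33781575), a secreted inhibitor of lipoprotein lipase, went from 23.8, 18.0, 21.8, 25.0 and 20.5 CPM to 13.3, 14.3, 12.2, 15.1 and 11.1 CPM, by -0.72 ± 0.11 (adjusted p = 0.0351). Both are on the list of 27 genes of fatty acid use and PPAR targets, of which 3 fell, 0 rose, 9 had a positive sign and the median was -0.058. Cpt1a, the carnitine transferase that admits fatty acids to mitochondria, stood at -0.058 ± 0.021 and did not pass (adjusted p = 0.38).

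The rest of the satellite glial list did not follow Fabp7. Of its 18 measured genes, 7 had a positive sign, 1 fell (Fabp7) and 0 rose, and the median was -0.037. Glul, glutamine synthetase, had 529 to 549.6 CPM in vehicle and 557 to 608 CPM in morphine libraries (0.12 ± 0.025, adjusted p = 0.12). These values lay higher in morphine mice without overlap and missed the threshold. The 17 Schwann cell and myelin genes had 0 calls and a median of 0.035.

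Other genes that fell have different roles. Sat1 (chrX:155213126-155216449), which acetylates spermidine and spermine and starts polyamine breakdown, had 108, 96.7, 94.4, 89.3 and 93.4 CPM in vehicle and 74.5, 77.2, 67.2, 69.5 and 69.9 CPM in morphine libraries, without overlap, a fall of -0.43 ± 0.054 (adjusted p = 0.0190). It was the 1 called gene among 18 of polyamine metabolism, whose next smallest p belonged to the polyamine transporter Atp13a3 at 0.10 ± 0.032 (adjusted p = 0.30). Frmd6 and Amotl1, which act in the Hippo growth pathway at the cell cortex, fell by small amounts. Frmd6 had 45.5 to 47.7 CPM in vehicle and 40.8 to 42.5 CPM in morphine libraries (-0.17 ± 0.022, adjusted p = 0.0230), and Amotl1 had 148 to 156 and 136 to 143 CPM (-0.13 ± 0.021, adjusted p = 0.0496). Of the 21 Hippo genes measured, these 2 fell, 0 rose, 6 had a positive sign and the median was -0.049. Rhoj, a GTPase of endothelial cells, fell from 14.8, 13.7, 12.9, 13.97 and 13.1 CPM to 11.2, 10.4, 10.2, 11.3 and 10.5 CPM (-0.35 ± 0.051, adjusted p = 0.0329). Of 21 genes of endothelium and pericytes 4 had a positive sign, with a median of -0.10. Cldn5, the tight junction claudin of these vessels, stood at -0.25 ± 0.081 and did not pass (adjusted p = 0.31).

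Leaving out single mice ended several of these calls. Fabp7 passed in each of the 10 such fits. Sat1 was lost without vehicle replicate 3 or 5 or morphine replicate 3 or 5. Angptl4 and Frmd6 were each lost in 8 of the 10, Rhoj in 9, and Amotl1 in every one. Without the 4 libraries highest in pituitary genes, a fit with fewer mice, 0 of the 7 passed. Their log2 fold changes were from -0.62 to -0.15, with a median of -0.37 against -0.38 in all 10 libraries.

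**Figure D3:**
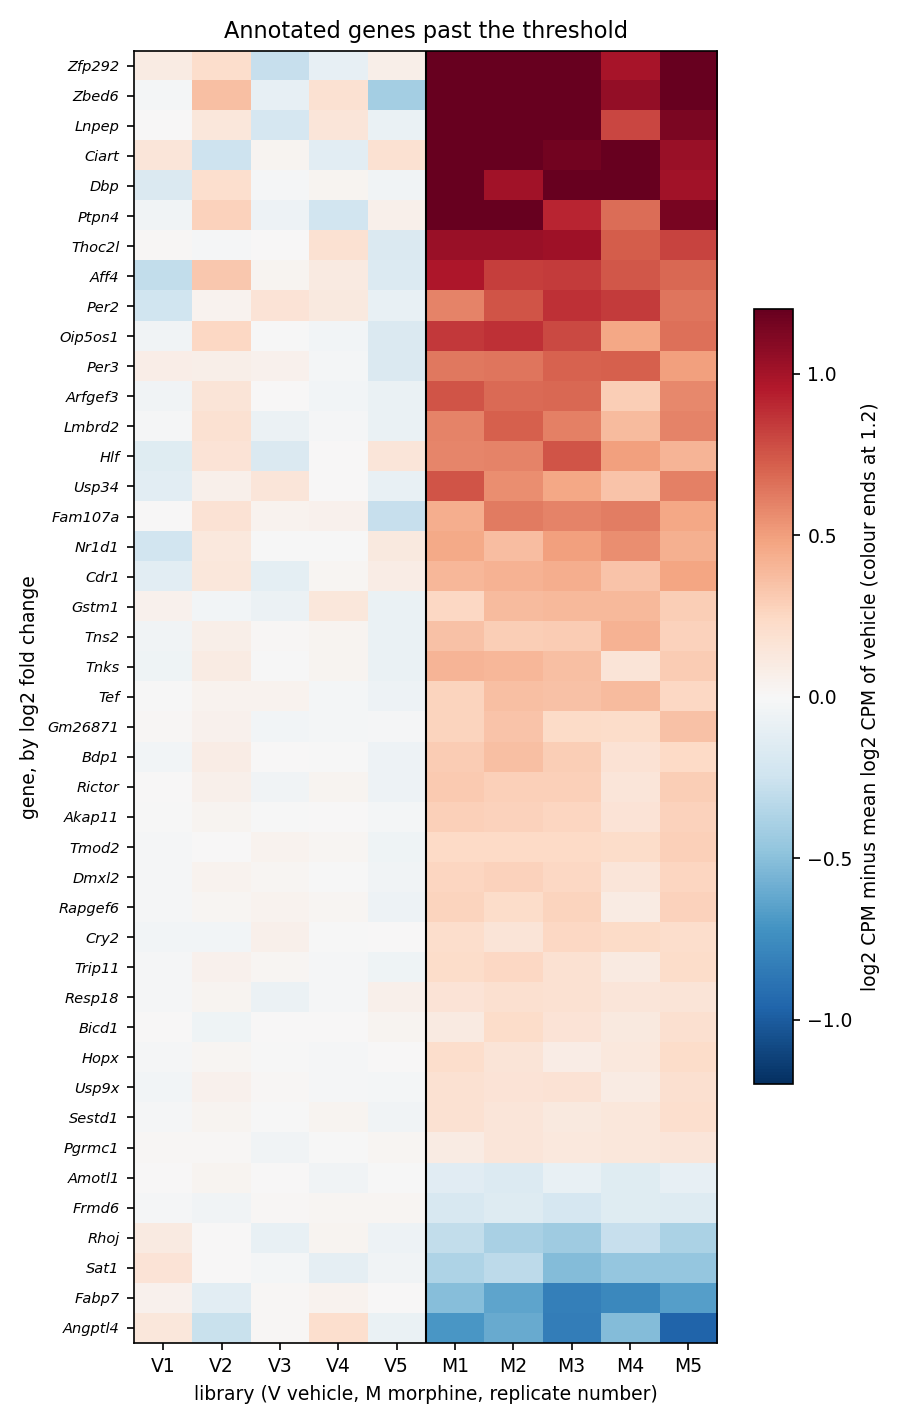
Annotated genes past the threshold (y axis, ordered by log2 fold change) in each trigeminal library (x axis). The colour gives log2 CPM minus the mean log2 CPM of the 5 vehicle libraries, and colours end at 1.2; Atrx, with 0 counts in vehicle, and 1 gene not reported here are left out. Morphine replicate 4 is paler than its group in many genes that rose, and the clock genes Dbp, Ciart and Per3 keep their colour in that library.

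The second large group among the genes that rose was defined by the length of the message. Of the 36 annotated genes that rose and had a length in the annotation, 19 had a longest transcript model of at least 8000 nt (52.8%), against 864 of 14298 genes over 1 CPM (6.04%). Of the 8 clock genes called, 0 were that long. Over all genes above 1 CPM the median log2 fold change was 0.033 for models of 8000 to 10000 nt (493 genes) and 0.050 for longer ones (371 genes), and lay between -0.0058 and 0.0054 in each shorter bin. Long messages were singled out after their values were seen. Against each gene's mean over the 10 libraries, the 864 long-message genes had a median deviation of 0.032, 0.020, 0.035, -0.013 and 0.032 in morphine replicates 1 to 5 and of -0.022, 0.021, -0.015, -0.047 and -0.053 in vehicle replicates 1 to 5, on the log2 scale. Vehicle replicate 2 lay among the morphine libraries and morphine replicate 4 among the vehicle libraries. Length and GC content were also fitted as offsets within each library, over the 17224 genes with a length. With these offsets 16 of the 19 passed, the largest edgeR adjusted p was 0.24 and the median log2 fold change was 0.23. In the same genes without offsets 19 passed, the largest edgeR adjusted p was 0.018 and the median was 0.28. The part of RNA quality in this shift was not tested, since the sources used here give no measure of it.

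**Figure D4:**
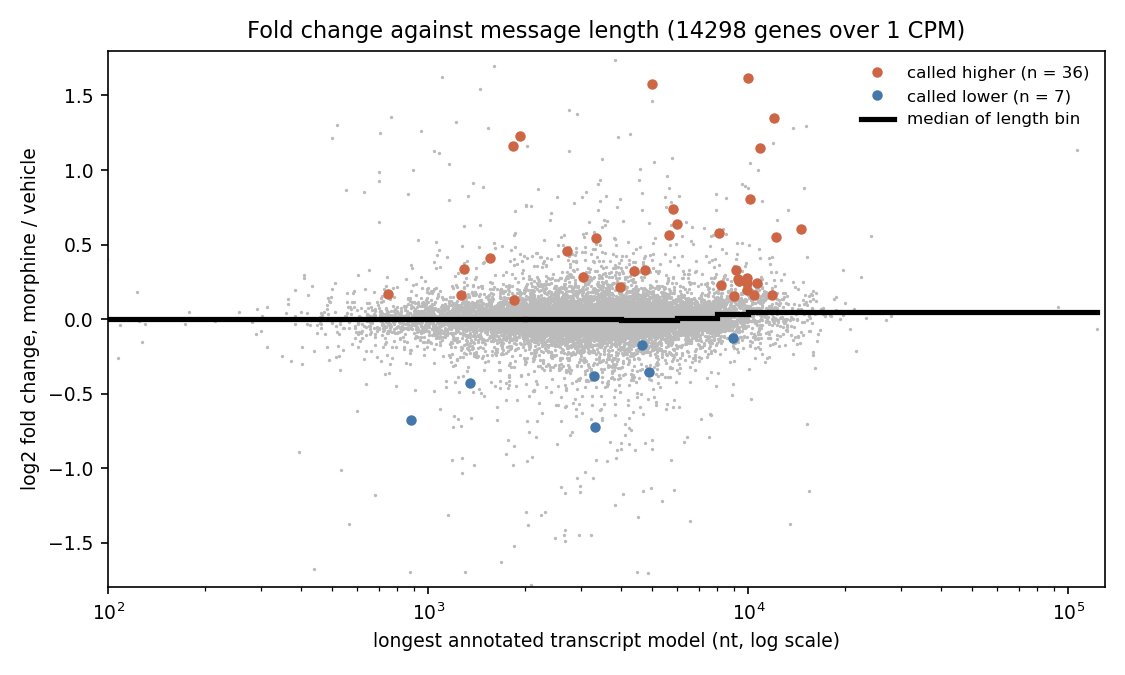
Log2 fold change of morphine against vehicle (y axis) by the longest annotated transcript model (x axis, nt, log scale) for genes over 1 CPM in trigeminal ganglia; 22 genes lie outside the axis. Grey points are single genes, coloured points are the called genes and black lines are bin medians, which lie near 0 up to 8000 nt and above 0 beyond.

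Of the long-message genes that rose, Zfp292, Aff4, Bdp1 and Atrx encode proteins of the nucleus. Zfp292 (chr4:34803110-34882983), a zinc finger factor with a model of 9986 nt, had 4.22, 4.54, 3.25, 3.68 and 4.12 CPM in vehicle and 15.5, 14.7, 11.6, 7.81 and 11.3 CPM in morphine libraries. The groups were well apart, with morphine replicate 4 the lowest of its group, and the log2 fold change was 1.62 ± 0.18 (adjusted p = 0.00931). Aff4, a scaffold of the super elongation complex that releases paused RNA polymerase, rose from 56.3, 86.1, 70.3, 74.4 and 61.4 CPM to 135, 123, 124, 116 and 111 CPM (0.80 ± 0.11, adjusted p = 0.0276). Bdp1, a subunit of the RNA polymerase III initiation factor, rose by 0.28 ± 0.040 (adjusted p = 0.0344). Atrx, a chromatin remodeller, is represented by a single matched transcript model. No vehicle library held a count of this model, and the morphine mice had 195 to 698 counts. The level of the model was at least 636-fold higher against a floor of 3 counts over the vehicle group (edgeR adjusted p = 0.0148). It did not pass the count filter in the accumbens alone, and whether it stands for the gene's total was not tested. Whether the exact 0 lay in the RNA or in the estimated division of reads between models was not tested.

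Others encode proteins of trafficking and signalling. Lnpep (chr17:17527723-17624489), a membrane aminopeptidase that cleaves oxytocin and vasopressin and travels with glucose transporter vesicles, had 13.2, 14.5, 11.5, 14.6 and 12.5 CPM in vehicle and 42.9, 38.9, 35.3, 23.03 and 29.0 CPM in morphine libraries, without overlap, a rise of 1.35 ± 0.16 (adjusted p = 0.0128). Arfgef3, of the family of exchange factors for ARF GTPases, had 18.6, 21.2, 19.1, 18.6 and 18.1 and 32.2, 30.6, 30.8, 23.5 and 28.5 CPM, a rise of 0.61 ± 0.082 (adjusted p = 0.0276). Ptpn4, a tyrosine phosphatase, had 5.44, 6.79, 5.36, 4.77 and 5.84 and 14.4, 16.2, 10.5, 8.90 and 12.4 CPM (1.15 ± 0.16, adjusted p = 0.0329). In all of these the highest vehicle value was below the lowest morphine value. Akap11, Tmod2, Dmxl2 and Rictor rose by less than 1.3-fold. Akap11, an anchor of protein kinase A, had 236, 243, 237, 238 and 234 CPM in vehicle and 289, 288, 284, 266 and 289 CPM in morphine libraries (0.25 ± 0.025, adjusted p = 0.00563). Tmod2, which caps actin filaments in neurons, had 369, 373, 382, 378 and 360.5 and 439, 439, 441, 435 and 453 CPM (0.24 ± 0.020, adjusted p = 0.00345), a narrow range in each group. Dmxl2, a regulator of vesicle acidification, rose by 0.24 ± 0.027 (adjusted p = 0.00931), and Rictor, the defining subunit of the mTORC2 kinase complex, by 0.27 ± 0.037 (adjusted p = 0.0276).

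Further long messages encode enzymes that modify proteins. Usp34, a ubiquitin protease, had 78.8, 89.5, 95.2, 86.6 and 80.9 CPM in vehicle and 145, 127, 119, 109 and 131 CPM in morphine libraries and rose by 0.55 ± 0.079 (adjusted p = 0.0335). Usp9x, another ubiquitin protease, rose by 0.16 ± 0.024 (adjusted p = 0.0359), and Tnks, a poly-ADP-ribose polymerase of telomeres and Wnt signalling, by 0.33 ± 0.052 (adjusted p = 0.0496). The remaining long genes that rose were Lmbrd2 (0.58 ± 0.068, adjusted p = 0.0113), Sestd1, Rapgef6, Trip11 and Bicd1, the last 4 with log2 fold changes between 0.15 and 0.23. Morphine replicate 4 was the lowest of its group in Akap11, Dmxl2, Rictor, Lmbrd2, Usp34, Usp9x, Tnks, Zfp292, Lnpep, Arfgef3 and Ptpn4. Without that library 18 of the 19 long genes passed, and without each other library between 6 and 16 passed. Without the 4 libraries highest in pituitary genes, a fit with fewer mice, 0 of the 19 passed, at edgeR adjusted p from 0.20 to 0.47. Their median log2 fold change was 0.26 there, against 0.28 in all 10 libraries.

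The remaining 11 genes that rose were neither clock genes nor annotated with a long model. Tns2, a tensin that links actin to adhesion sites, had 55.8, 60.2, 58.1, 58.9 and 54.4 CPM in vehicle and 73.3, 70.3, 71.0, 76.6 and 69.7 CPM in morphine libraries, without overlap (0.33 ± 0.035, adjusted p = 0.00868). Fam107a, an actin-associated protein known as a stress-responsive gene, went from 20.4, 23.02, 21.0, 21.1 and 16.8 CPM to 27.6, 31.4, 30.8, 31.2 and 28.1 CPM (0.54 ± 0.078, adjusted p = 0.0329). Gstm1, a glutathione transferase, rose by 0.34 ± 0.047 (adjusted p = 0.0276) and Pgrmc1, a heme-binding membrane protein, by 0.13 ± 0.018 (adjusted p = 0.0276). Resp18, a protein of secretory granules, rose by 0.17 (adjusted p = 0.0436), and Hopx, a homeodomain-only protein, by 0.16 (adjusted p = 0.0496).

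Several genes of this set share reads or ground with others and are uncertain. Zbed6, which lies within an intron of Zc3h11a, rose from 4.38, 5.73, 4.16, 5.06 and 3.36 CPM to 17.8, 15.1, 14.5, 9.27 and 11.1 CPM (1.58 ± 0.20, adjusted p = 0.0190). Thoc2l, a relative of the mRNA export factor Thoc2, rose by 0.93 ± 0.093 (adjusted p = 0.00563), and reads may be split between the pair. Oip5os1, the long noncoding RNA also called Cyrano, had 38.8, 47.6, 39.9, 39.0 and 35.5 CPM in vehicle and 72.0, 73.6, 69.2, 55.0 and 63.0 CPM in morphine libraries (0.73 ± 0.10, adjusted p = 0.0240). Cdr1, whose locus is known for a transcript of the opposite strand that yields the circular RNA Cdr1as, rose by 0.41 ± 0.063 (adjusted p = 0.0436). The libraries were made with a strand-marking kit per the labels, but the sources used here do not say how strand was used in counting, so the strands of these loci cannot be told apart. Gm26871, a predicted gene, rose by 0.28 ± 0.032 (adjusted p = 0.00931). Just outside the threshold, the nearest genes above were Dnajb14, Plcxd3, Abca5, Ttll7 and Chchd7 (adjusted p from 0.0516 to 0.0540), and the nearest below were Dyrk1b, Itgb3, Slc20a2, Kcna1 and Dnaja1 (adjusted p from 0.0563 to 0.0570).

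Single transcripts were tested in the same way, and 32 of 54492 passed (0.0587%), 26 higher and 6 lower. In Scn9a and Trip11, minor models differed more than the gene's total. Scn9a encodes the voltage-gated sodium channel NaV1.7, which sets the firing threshold of nociceptors. Its total had 349, 379.5, 351, 359 and 340.5 CPM in vehicle and 415, 392, 399.9, 393 and 438 CPM in morphine libraries, and the log2 fold change of 0.20 ± 0.038 missed the threshold (adjusted p = 0.0919). The model NM_001290674.1 had 16.5, 13.7, 9.97, 8.81 and 6.76 CPM in vehicle and 54.0, 32.9, 46.4, 35.8 and 41.4 CPM in morphine libraries, a rise of 1.91 ± 0.25 (adjusted p = 0.0397). The model NM_001290675.1 had 28.4, 44.4, 32.2, 35.5 and 28.5 and 88.3, 84.9, 85.3, 59.4 and 88.6 CPM, a rise of 1.27 ± 0.15 (adjusted p = 0.0342). Neither model overlapped between groups. The main model XM_006499036.1 went from 306 to 278 CPM and did not pass (adjusted p = 0.58), and its share of the Scn9a total was 85.9% in vehicle and 68.3% in morphine mice. The total of Trip11, a Golgi matrix protein, passed at 0.20 (adjusted p = 0.0472), and its minor model XM_006515382.3 went from 4.42 to 14.8 CPM (1.75 ± 0.19, adjusted p = 0.0342) while the main model XM_011243986.1 stood at 65.3 and 64.4 CPM. In Dbp the main model NM_016974.3 carried the rise, from 12.9 to 30.2 CPM (1.23 ± 0.092, adjusted p = 0.00566), and in Sat1 the model NM_001291865.1 fell from 53.0 to 35.1 CPM (-0.59 ± 0.048, adjusted p = 0.00573). Models of a gene share most of their sequence, so reads were divided between them by estimation, and Scn9a and Trip11 are also long messages.

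Genes of opioid action and of nociceptor function were mostly close between groups. Among the 9 opioid receptor and peptide genes measured, 0 passed. Oprm1, the mu receptor through which morphine acts, was low, with 1.14, 1.05, 0.884, 1.22 and 1.26 CPM in vehicle and 2.73, 1.799, 1.76, 1.21 and 1.598 CPM in morphine libraries. The groups overlapped and the log2 fold change was 0.71 ± 0.21 (adjusted p = 0.26). Oprd1, the delta receptor, had 23.3 to 25.2 and 20.3 to 24.7 CPM (-0.14 ± 0.050, adjusted p = 0.38), Oprk1, the kappa receptor, 6.14 to 7.996 and 7.39 to 9.21 CPM (0.14 ± 0.10, adjusted p = 0.71), and Oprl1, the nociceptin receptor, 28.0 to 32.3 and 27.3 to 29.6 CPM (-0.047 ± 0.040, adjusted p = 0.77). Of 45 partners of opioid signalling, Akap11 rose and none fell (0.153% and 0.0272% of all features did), and the median was -0.0032. Akap11 is also among the long messages described above. Rgs17, which shortens G protein signals, stood at 0.14 ± 0.029 (adjusted p = 0.12), and Grk5, a kinase of activated receptors, at -0.093 ± 0.023 (adjusted p = 0.18).

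Of 23 nociceptor channels and receptors, 0 passed, 8 had a positive sign and the median was -0.070. P2rx3, the ATP-gated channel of nociceptors, had 176 to 199.5 CPM in vehicle and 151 to 176 CPM in morphine libraries (-0.19 ± 0.044, adjusted p = 0.17). Mrgprd, a receptor of non-peptidergic nociceptors, stood at -0.18 ± 0.053 (adjusted p = 0.25), and the CGRP gene Calca at -0.14 ± 0.078 (adjusted p = 0.60), CGRP being the sensory peptide targeted in migraine therapy. Among 35 potassium channel genes 0 passed and 25 had a positive sign, with a median of 0.058. Kcnh7, with a model of 13321 nt, had 15.3, 15.8, 13.7, 13.8 and 14.01 and 28.9, 26.4, 26.1, 17.5 and 21.7 CPM without overlap (0.73 ± 0.12, adjusted p = 0.0570), and Kcna1, a channel that limits excitability of large neurons, had 1170.1 to 1209 and 1036 to 1115 CPM (-0.14 ± 0.024, adjusted p = 0.0567). Genes of sensory neuron identity had a median of 0.0019 over 20 members, 0 called, so neuronal identity genes as a group were at the level of all features.

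The macrophage, MHC, cytokine and Toll-like receptor lists had negative medians and 0 calls. The 15 genes of lymphocytes and neutrophils had a median of 0.12, with 10 positive and 0 called. The 18 macrophage genes had a median of -0.56, with 3 positive, and without vehicle replicate 2 the median was -0.061. Aif1, a marker of macrophages, had 1.48, 11.4, 1.66, 1.04 and 1.61 CPM in vehicle and 1.10, 1.21, 1.19, 0.887 and 0.913 CPM in morphine libraries, so vehicle replicate 2 stood alone and the other vehicle mice overlapped the morphine mice (-1.69 ± 0.66, adjusted p = 0.43). Ptprc, the leukocyte antigen CD45, showed the same single library (4.53, 18.6, 4.63, 3.81 and 4.12 against 3.36, 3.69, 4.61, 3.84 and 3.03 CPM). The 9 MHC class II genes, which present antigen, had a median of -0.35 and were not led by that library. H2-Aa had 26.5, 23.2, 32.8, 26.7 and 29.7 CPM in vehicle and 21.6, 19.7, 23.8, 22.6 and 18.4 CPM in morphine libraries, nearly without overlap, and did not pass (-0.39 ± 0.10, adjusted p = 0.20). Toll-like receptors and their partners had 3 of 16 positive and a median of -0.17.

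In the accumbens of the same mice 0 of 29910 features passed edgeR's test of morphine against vehicle (1709 at an unadjusted p under 0.05). The difference between the tissues was tested itself, as the trigeminal effect minus the accumbens effect over all 20 libraries, and 13 of 32998 features passed (0.0394%). Of the genes called in ganglia, 3 were among them. Lnpep differed by 1.49 ± 0.19 (adjusted p = 0.00896), Zfp292 by 1.89 ± 0.28 (adjusted p = 0.0138) and Arfgef3 by 0.62 ± 0.10 (adjusted p = 0.0450), and their accumbens log2 fold changes were -0.14 ± 0.11, -0.27 ± 0.20 and -0.017 ± 0.068. Ganglia and accumbens came from the same mice, and with the mouse as a block none of the 3 passed, at differences of 1.46, 1.91 and 0.62 (adjusted p = 0.12, 0.20 and 0.22). In limma voom none of the 3 passed either (adjusted p = 0.15, 0.0702 and 0.12). Lnpep and Zfp292 passed in each of 20 fits without 1 library, and Arfgef3 was lost in 16 of them, at adjusted p up to 0.13. The 8 clock genes called in ganglia were all positive in accumbens too, with log2 fold changes from 0.11 to 0.83 there, and in none did the tissues differ by the test. Ciart had 0.83 ± 0.11 in accumbens (adjusted p = 0.13; difference, adjusted p = 0.64), Dbp 0.45 ± 0.12 (difference, adjusted p = 0.13) and Tef 0.31 ± 0.070 (difference, adjusted p = 1.00). Of the 18 long genes measured in accumbens, 12 were positive there, with a median of 0.016. Fabp7 had -0.44 ± 0.16 in accumbens and Angptl4 0.0054 ± 0.25, and neither difference passed (adjusted p = 0.90 and 0.59).

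**Figure D5:**
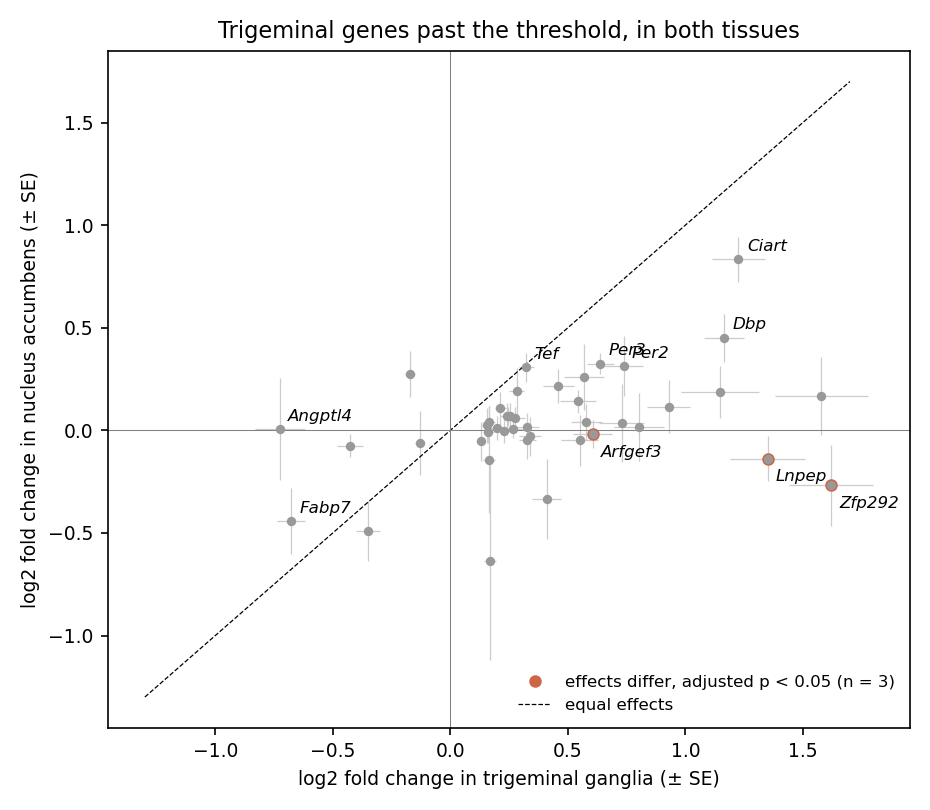
Log2 fold change in trigeminal ganglia (x axis) and in nucleus accumbens (y axis) of the annotated genes called in ganglia, each with its SE; Atrx and 1 gene not reported here are left out. Lnpep, Zfp292 and Arfgef3 (coloured) are the called genes whose effects differed between tissues in the fit without the mouse as a block (with it, none of the 3 passed), and Ciart, Dbp, Per2, Per3 and Tef lie above 0 in both.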

How the data were processed

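RNA-seq of trigeminal ganglia from 10 mice was used, with the 10 accumbens libraries of the same mice for the tissue difference. TRIzol and RNeasy columns were used for RNA, and libraries were made with a strand-marking mRNA kit, per the labels' protocols. Reads of 101 cycles came from an earlier and a later set of lanes without a record per library. The design text and the protocol disagree on whether 1 or both ends were read. The authors deposited expected counts, estimated per RefSeq transcript and not normalised, with 56.0% of values not whole, and kallisto 0.43 and build GRCm38 are named per the submitters' processing notes. Its index and settings are not given in the sources used.

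Transcripts were summed per gene through RefSeq GRCm38.p6 (GENCODE M21 tables added 151), which matched 86608 of 107185 transcripts and 90.9% of trigeminal counts. The 20577 unmatched transcripts stayed as single features. Sums were rounded, filtered with filterByExpr, scaled by TMM and fitted with edgeR 4.0.16 in R 4.3.3 (estimateDisp, robust glmQLFit, glmQLFTest, 2-sided) on the 10 libraries, and on all 20 for the tissue difference. Each SE was taken as the size of the fold change over the square root of F. Lengths are the longest GENCODE M21 transcript model of a gene, matched by symbol.

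The groups, lists and rule for named genes were chosen with earlier results of these data known. The rule names every annotated gene called, up to 5 members of each list by p, the clock and opioid lists, and the 5 genes nearest the threshold in each direction. Among these, 1 gene that fell and a few members of lists that did not pass are not reported here. Motifs, long messages and single transcripts were chosen after values were seen. The fit was tested on counts simulated from the trigeminal means and library sizes, with 200 genes changed. It recovered 20.9% of 1.2-fold, 47.8% of 1.5-fold and 78.8% of 2-fold changes, and 3 of its 101 calls were false. Small changes were thus often missed. Replicates differed by 12.3 to 27.1 in chi-square per gene, where counting alone gives about 1. Same-numbered libraries of the groups had correlations from -0.0077 to 0.040 and were not treated as pairs. Alternatives were DESeq2 1.42.0, limma 3.58.1 voom, other scaling, filters and thresholds, blocks, covariates, length and GC offsets, and leaving out libraries.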

Additional observations from a re-analysis of the deposited data

Results flagged for a closer look

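Of 244 groups of 5 libraries checked for a library apart from the others (116 named genes and 6 marker lists in both groups), 22 had one, and chance gives about 1 in 20. Morphine replicate 4 was the lowest of its group in Clock (81.3 CPM), Dmxl2 (243 CPM), Akap11 (266 CPM), Rictor (56.5 CPM), Usp9x (412 CPM), Dnajb14 (169 CPM), Abca5 (122 CPM) and Ntrk3 (106 CPM), and the highest in the skeletal muscle list (723 CPM summed). Vehicle replicate 2 was the highest of its group in Aif1 (11.4 CPM), Ptprc (18.6 CPM), C1qb (29.1 CPM) and the macrophage list (336 CPM summed), and also in Lmbrd2 (32.4 CPM) and Cacnb4 (206 CPM), and it was the lowest in Fabp7 (171 CPM) and Itgb3 (27.5 CPM). Vehicle replicate 1 was the highest in the skeletal muscle list (309 CPM summed). Single flags fell on Itgb3 in morphine replicate 5 (21.5 CPM, lowest), Hsph1 in vehicle replicate 3 (277 CPM, highest), Oprk1 in morphine replicate 2 (9.21 CPM, highest) and Drd1 in vehicle replicate 4 (1.02 CPM, highest).

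Between the tissues, the trigeminal effect exceeded the accumbens effect by 0.62 on the log2 scale for Arfgef3, by 1.49 for Lnpep and by 1.89 for Zfp292, with edgeR adjusted p for the difference of 0.0450, 0.00896 and 0.0138. With the mouse as a block these were 0.22, 0.12 and 0.20, and none passed. The trigeminal groups of these 3 did not overlap, as in all 53 called features and in 2.54% of all features tested. That separation came with their call in ganglia and says nothing of the accumbens.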

How the results depend on the processing

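The count of 53 called trigeminal features (45 higher, 8 lower) depended on the setting more than the fold changes did. DESeq2 called 709 (443 higher, 266 lower), and limma voom 82 (17 lower). At least 1 CPM in 5 libraries gave 87 (68 and 19), a threshold of 0.10 gave 148 (106 and 42), and named genes alone gave 123 (94 and 29). Library size alone and the fit on all 20 libraries each called 13 lower. The replicate block called 2 (2 higher, 0 lower), Per2 and Per3, but the numbers do not pair the mice. Single transcripts gave 32 (26 higher).

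With the pituitary list as covariate 24 passed (19 and 5), and with the striatal list 1 (1 and 0). The correlation of these covariates with treatment was 0.31 and 0.74. Alternatives chosen after seeing the data gave 0 with striatal markers as covariate (correlation 0.78, 1510 at an unadjusted p under 0.05). They gave 0 in edgeR without the 4 libraries highest in pituitary genes (2381 at an unadjusted p under 0.05), and 35 (3 lower) without the 2 highest in muscle genes. The fit without the 4 pituitary-rich libraries left out vehicle replicates 4 and 5 and morphine replicates 3 and 5, so fewer mice were compared. Genes with a length alone gave 124 (93 and 31), length and GC offsets 181 (125 and 56), and the replicate block with those offsets 122 (80 and 42). These offsets replaced planned ones over all features, void because 58.6% of features had a length. Leaving out 1 library gave 21 to 77 called, 16 to 58 higher and 3 to 19 lower. The lowest counts came without vehicle replicate 5 or morphine replicate 2 (21 each), and the cause was not tested.

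Of the 45 annotated genes called, 16 passed without each library in turn, among them Dbp, Ciart, Per2, Per3, Tef, Cry2 and Fabp7. Signs turned for Clock, to -0.023 with either set of offsets and to -0.00084 without the 4 pituitary-rich libraries, for Rora, to -0.0092 and -0.010 with the offsets, and for Oprl1, to 0.0091 with the striatal covariate. Of 1036 recomputed list medians, 56 moved by more than the SD between mice.

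The 13 features whose effect differed between tissues became 8 with library size alone, 228 with DESeq2, 0 with limma voom (2850 at an unadjusted p under 0.05), 8 without a filter, 1 with the mouse as replicate block, the pairing the labels give, and 6 to 33 when 1 library was left out.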

Other observations

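Heat shock chaperones leaned downward. Of 18 measured, 17 had a negative log2 fold change, 0 passed the test (0.180% of all features did) and the median was -0.12. Dnaja1, a co-chaperone of HSP70, had 538, 536, 563, 525 and 538 CPM in vehicle and 477, 506, 487, 471 and 497 CPM in morphine libraries, without overlap (-0.15 ± 0.025, edgeR adjusted p = 0.0570). Hspa1b, the stress-induced HSP70, had 39.0, 25.9, 54.2, 29.7 and 45.1 and 25.3, 21.0, 23.9, 22.8 and 21.8 CPM, a spread of the vehicle mice wider than that of the morphine mice (-0.75 ± 0.18, adjusted p = 0.18). Hsph1 and the mitochondrial Hspd1 stood at -0.22 ± 0.054 and -0.15 ± 0.034.

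Of 18 fibroblast and matrix genes 14 had a negative sign and 0 passed, with a median of -0.078. In 2 of the 18 the groups did not overlap, 1 higher and 1 lower, against 2.54% of all features tested (1.44% higher, 1.11% lower). Col3a1, a fibrillar collagen, had 87.2, 90.5, 93.4, 90.7 and 77.9 CPM in vehicle and 71.7, 57.0, 54.2, 65.2 and 48.5 CPM in morphine libraries, every morphine mouse lower (-0.57 ± 0.10, adjusted p = 0.0687), whereas Fn1, fibronectin, had 37.4, 49.6, 28.9, 39.4 and 39.5 and 75.4, 52.9, 66.0, 49.9 and 52.8 CPM, every morphine mouse higher (0.61 ± 0.15, adjusted p = 0.20). Of 25 immediate early genes 7 had a positive sign and 0 passed, with Egr3 at -0.45 ± 0.11 and Jun at -0.16 ± 0.039. The 22 cholesterol synthesis genes had a median of -0.025 and the 47 ribosomal protein genes 0.011, with 0 called in either.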
